A study of Rattus norvegicus with 24 samples.

Results

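Livers of rats fed 1 of 2 kiwifruit cultivars, Geneva (ChGENE) or Hayward (ChHAYW), on top of a high-cholesterol diet were compared with each other. The comparison took the 8 ChGENE and the 8 ChHAYW arrays of the 24 arrays in the series. A probe belonged to it when it was well above background on all 8 arrays of at least 1 of these groups, which 17162 of the 30367 probes that are not controls were. They are called detected probes below and stand for 12002 gene symbols, with 3059 of the probes carrying none. Of the detected probes, 16248 were above background on all 16 arrays, 483 passed through ChGENE alone and 431 through ChHAYW alone. Probes that passed through 1 group alone were chosen in a way that favours higher levels in that group. No count of detected probes is therefore used as support. Just outside the rule, 645 probes were above background on 7 arrays of the better group, with a median level of −4.34, against −4.01 for those just inside that passed through 1 group alone and −0.50 for all detected probes. A level here is the log2 intensity of a probe minus the 75th percentile of its array, so that 0 is that percentile and 1 unit is a doubling.

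The liver makes cholesterol, turns it into bile acids and packs it with triglycerides into lipoproteins, and dietary cholesterol lowers its synthesis there through the sterol-regulated factor SREBP. Bile acids are the main route by which cholesterol leaves the body, and transporters of the hepatocyte membrane carry them and many drugs into and out of the cell. Plant compounds in the diet are handled by cytochrome P450 enzymes, by transferases that attach glucuronate, sulfate or glutathione, and by genes under the factor Nrf2, which answers to electrophiles.

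All animals were male Wistar rats and ate a diet with 1% cholesterol for 42 days. The control group (Ch) received this diet alone, ChGENE received it with 5% lyophilised Actinidia arguta of the cultivar Geneva, and ChHAYW with 5% lyophilised Actinidia deliciosa of the cultivar Hayward. The labels give each group 8 livers, each measured on its own 1-colour Agilent rat array, and the sources used here give no age for the rats. Groups follow the sample labels. The headings of the study's own comparison lists cannot all be right under any 1 assignment of the groups, so the labels were kept. There was no group without cholesterol, and no pure compound of the fruit was tested.

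Each diet had a slide of its own, which held all 8 of its arrays. An effect of the slide and one of the diet cannot be told apart, and the Ch slide was dimmer. The 75th percentile of the intensities ran from 388 to 775 in ChGENE, from 409 to 1049 in ChHAYW and from 188 to 653 in Ch, and the share of probes above background from 59.9% to 66.1%, from 59.0% to 64.1% and from 49.7% to 62.3%. Among 276 pairs of arrays, 3 had differences close to the error that the scanner software gives its own spots. These were arrays 4 and 5 of ChGENE, 6 and 7 of ChHAYW and 1 and 2 of Ch, in which 94.7%, 97.0% and 95.5% of the spots lay within 1.96 times that error, where 95% is what the error alone gives, against at most 82.7% in the other pairs. The SDs of the log2 differences in these pairs were 0.272, 0.237 and 0.239, somewhat above the 0.230, 0.227 and 0.231 of that error. Each such pair was averaged and counted as 1 sample, named ChGENE 4/5 and ChHAYW 6/7, which leaves 7 samples per group. The labels number them as separate biological replicates, and the cause was not tested.

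The tissue had the markers of liver. All 12 hepatocyte markers were above background on all 16 arrays, with a median level above that of 99.9% of the probes. Of the markers of other cells, 14 of 15 for Kupffer cells and macrophages were above background on all 16 arrays. So were 13 of 14 for stellate cells, 12 of 13 for sinusoidal endothelium and 7 of 9 for erythroid cells. For T and natural killer cells the count was 7 of 17, for cholangiocytes 4 of 10 and for adipocytes 4 of 9. It was 3 of 10 for neutrophils and for pancreas, 3 of 9 for muscle and 2 of 8 for B and plasma cells. Above background on none were Ms4a1 of B cells, Elane of neutrophils, Cldn4 of cholangiocytes, Epb42 of erythroid cells, Plin1 of adipocytes and Tnnt3 of muscle. Of the pancreas markers, Prss1, Cela2a and Pnlip were above background on none. ChGENE 4/5 stood apart in genes of other cells. Over the 3 detected neutrophil markers its mean level was 4.01 above the mean of the 14 samples, while the other ChGENE samples lay between −0.82 and −0.002, and ChHAYW between −0.94 and 0.39. The high mean came from S100a8 and S100a9, with levels of 3.98 and 4.11 in ChGENE 4/5. The third marker, Camp, went the other way, and its level there of −1.74 was the lowest of the 14 samples. Values without this sample stand beside several of the results that it moved. In whole liver, fewer cells of a type and less RNA per cell cannot be told apart.

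No probe passed the test for a difference between the cultivars. With limma on 7 samples per group, 0 of the 30367 probes (0.0%) were called, at a threshold of 0.05 on the p adjusted by Benjamini-Hochberg and a minimum fold change of 1.3, and the lowest adjusted p was 0.110. Without adjustment, 1641 probes (5.40%) had a p under 0.05, and 1256 of the detected probes did. At that level and a fold change of 1.3, 411 detected probes (2.39%) were higher in ChGENE and 447 (2.60%) were lower. Over all probes the shares were 1.96% and 2.12%. Of the higher probes, 60 had passed the detection rule through ChGENE alone, and 55 of the lower through ChHAYW alone. Among probes above background on all 16 arrays the shares were 2.16% and 2.40%. The groups did not overlap in 31 detected probes (0.181%), 10 higher and 21 lower, against 0.122% of all probes. The differences were small in most genes. The central 90% of detected probes lay between −0.39 and 0.38, and their median was −0.0048, against −0.0298 for all probes. A difference of at least 1 was found for 46 detected probes in the direction of ChGENE and for 36 in that of ChHAYW. Of these 82, 56 were above background on all 16 arrays, 15 passed through ChGENE alone and 11 through ChHAYW alone. Over all 30367 probes, 207 had a difference of at least 1 in either direction. The median SD among samples was 0.303 in ChGENE and 0.291 in ChHAYW, which gave a median 95% interval of ±0.362 around a difference.

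The gene nearest to the threshold was Cgref1, which encodes a secreted calcium-binding protein with EF hands. Its lowest, median and highest levels were −1.98, −0.71 and −0.01 in ChGENE and −3.84, −3.19 and −1.63 in ChHAYW. The ranges shared ChGENE 1 and ChHAYW 8 alone, and the mean difference was 2.29 on the log2 scale (SE 0.342, 95% interval 1.56 to 3.02, limma adjusted p = 0.110). With each of the 16 arrays counted as 1 sample, as the labels number them, the difference was 2.39 and passed with a limma adjusted p of 0.0186. It also passed without ChGENE 1 (limma adjusted p = 0.0374) and without ChHAYW 8 (0.0183), and under 7 of 31 alternatives in all, with limma adjusted p from 0.0183 to 0.581 over the 31. In Ch, where the probe was above background on 5 of 8 arrays, the mean was −3.34 ± 1.68 (SD).

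Other genes that were higher in ChGENE had adjusted p from 0.175 to 0.418 in limma and did not pass. Fabp2, the fatty acid binding protein known from the intestine, had levels of 1.17, 2.71 and 3.81 in ChGENE and 0.67, 0.80 and 1.63 in ChHAYW (lowest, median and highest), and the difference was 1.63 (SE 0.318). Of the ChGENE samples, ChGENE 1 alone lay within the range of ChHAYW, and without it the difference was 1.88 with a limma adjusted p of 0.0377. That was the only 1 of 31 alternatives that called Fabp2, with adjusted p of up to 0.85 among them. Abhd2, a serine hydrolase that cleaves monoacylglycerols, had 0.29, 1.12 and 1.48 in ChGENE and −0.999, −0.15 and 0.09 in ChHAYW. The groups did not overlap, and the difference was 1.18 (SE 0.219, limma adjusted p = 0.175). Tsc22d1, a transcription regulator induced by TGF-beta, had 0.83, 2.01 and 2.94 in ChGENE and −0.26, 0.53 and 1.104 in ChHAYW, a difference of 1.46 (SE 0.275), and its second probe differed by 1.303. Of the ChGENE samples, only ChGENE 2 lay within the range of ChHAYW.

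Pdgfrb, the receptor for platelet-derived growth factor on stellate cells and pericytes, had levels of −0.31, −0.10 and 0.82 in ChGENE and −1.53, −1.02 and −0.44 in ChHAYW (lowest, median and highest), and the groups did not overlap. Its difference was 1.01 (SE 0.225). Sec23a, a subunit of the COPII coat of secretory vesicles, had −0.99, −0.57 and −0.28 in ChGENE and −1.52, −1.24 and −1.01 in ChHAYW, a difference of 0.65 with no overlap, and its second probe differed by 0.48, also with no overlap. Cdr2, an antigen of paraneoplastic disease, differed by 1.14, Lamb3, the beta 3 chain of laminin, by 1.22, and Tmem120a, a membrane protein of the nuclear envelope, by 1.004. Smco4, a small membrane protein, differed by 0.81. Kncn, known from the cilia of inner ear hair cells, differed by 1.01 at a mean level of −2.70 in ChGENE. Unc5c, a netrin receptor, passed the detection rule through ChGENE alone (8 arrays against 2), so that its difference of 1.71 is a description, and its second probe was above background on none of the 16 arrays. Lamb3 and Kncn passed when arrays were weighted by their quality, with limma adjusted p of 0.0403 and 0.0384. Each passed in only 1 of 31 alternatives, with adjusted p of up to 0.668 and 0.612 among them.

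The 11 genes printed for the other direction were lower in ChGENE and had limma adjusted p between 0.175 and 0.418, so none passed. Kctd7, an adaptor of cullin ubiquitin ligases, had lowest, median and highest levels of −2.94, −2.71 and −2.45 in ChGENE and −2.31, −2.08 and −1.82 in ChHAYW, with no overlap and a difference of −0.64 (SE 0.118). Abcb1a, the efflux pump P-glycoprotein of the bile canaliculus, had −4.79, −4.25 and −4.04 in ChGENE and −3.88, −3.58 and −3.54 in ChHAYW. Its groups did not overlap, and the difference was −0.65 (SE 0.126). Gclm, the regulatory subunit of the enzyme that starts glutathione synthesis, had −5.21, −3.71 and −3.35 in ChGENE and −3.08, −2.72 and −1.78 in ChHAYW, and was above background on 6 of the 8 ChGENE arrays and on all of ChHAYW. It did not overlap either and differed by −1.301 (SE 0.284), or by −1.08 without ChGENE 4/5. Gclm passed the detection rule through ChHAYW alone, so that these values are a description. Adh7, an alcohol dehydrogenase that oxidises retinol, had 0.13, 0.54 and 0.70 in ChGENE and 0.74, 1.77 and 2.26 in ChHAYW and a difference of −1.04 (SE 0.237), with the lowest ChHAYW sample just above the highest ChGENE sample.

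Acsl4, the acyl-CoA synthetase that prefers arachidonate, had levels of 1.197, 1.78 and 2.37 in ChGENE and 2.26, 2.36 and 2.78 in ChHAYW (lowest, median and highest). ChGENE 1 alone lay within the range of ChHAYW, and the difference was −0.80 (SE 0.171). Eif4ebp3, a repressor of cap-dependent translation, differed by −0.83. Svil, the actin-binding protein supervillin, differed by −0.71, Actrt2, an actin-related protein, by −1.33, and Eri2, an exonuclease, by −0.87, each with no overlap. Lonrf1, a RING finger protein, differed by −0.79. Plekhh1, a protein with pleckstrin domains, differed by −1.51 at the probe named here and by −0.14 at its second, brighter probe. Eri2 was above background on 6 ChGENE arrays and Plekhh1 on 7. Both passed the detection rule through ChHAYW alone at these probes, so that their differences there are a description.

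The level in Ch, which took no part in the test, was set beside both cultivars. The genes were chosen for their difference between the cultivars, so the place of Ch is given as a value, with no test. Abhd2 averaged −0.29 in Ch and −0.26 in ChHAYW, and Tsc22d1 0.48 and 0.51. By the means, Ch lay nearer to ChHAYW in 12 of the 12 higher and 8 of the 11 lower genes printed, and nearer to ChGENE in 3. The same share over all probes was not computed. Kctd7, among those 3, averaged −2.63 ± 0.20 (SD) in Ch, −2.72 in ChGENE and −2.08 in ChHAYW. The spread within Ch was wide in several of them, with an SD of 1.68 in Cgref1 and 1.32 in Fabp2.

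The genes of bile acid synthesis and of bile acid and anion transport had medians below 0, which is the side of lower levels in ChGENE. No gene of these or the following lists passed the adjusted test at its brightest probe. Gene lists are described here at the brightest probe of each gene, where 1.96% of 19998 genes were higher and 2.27% were lower in ChGENE by the unadjusted p of 0.05 with a fold change of 1.3, called the unadjusted level below, and where the median of all genes was −0.0286. Of 16 genes of bile acid synthesis and conjugation, 14 were below 0 and 2, Cyp8b1 and Scp2, above, with a median of −0.29 (−0.25 without ChGENE 4/5). The mean level of the list, set to 0 over the 14 samples, ran from −0.154 to −0.037 in ChGENE and from −0.031 to 0.467 in ChHAYW. The mean level of the transport list ran from −0.37 to −0.008 and from −0.003 to 0.278. These were the 2 of 62 lists (3.23%) in which the groups did not overlap, and in both the nearest samples of the groups almost touched. In Ch the same lists ran from −0.227 to 0.403 and from −0.277 to 0.294, across both groups.

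Cyp8b1, the sterol 12-alpha hydroxylase that sets the share of cholic acid, had levels of 3.79, 4.14 and 5.27 in ChGENE and 2.88, 3.01 and 4.06 in ChHAYW (lowest, median and highest). It was higher in ChGENE by 1.13 (SE 0.261, limma adjusted p = 0.418), with ChHAYW 8 above 3 of the ChGENE samples. Cyp27a1, which starts the alternative pathway in mitochondria, had 1.94, 2.39 and 3.23 in ChGENE and 2.54, 3.20 and 3.29 in ChHAYW and differed by −0.57 (SE 0.193, unadjusted p = 0.0102). Amacr, which inverts a centre of the side chain before it is shortened, differed by −0.58 (SE 0.19, unadjusted p = 0.00848). In Cyp27a1, 3 ChGENE samples lay within ChHAYW, and in Amacr 1 ChGENE sample lay above all of ChHAYW and the other 6 below.

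In the transport list, 0 higher and 5 lower of 13 genes met the unadjusted level, 10 were below 0, and the median was −0.20 (−0.068 without ChHAYW 5). Without ChHAYW 6/7, 2 met the level on the low side, and without ChGENE 4/5 there were 1 higher and 4 lower. With all samples, the 5 lower genes were Abcb1a, Slc10a1, the sodium-dependent carrier that takes bile acids up from blood, with −0.96 (SE 0.435), Abcc4, a basolateral efflux pump, with −0.40 (SE 0.138), and 2 carriers. These were Slco1a4 (Slco1a2 on the array) and Slco1a1, which take up organic anions and had −0.90 (SE 0.346) and −0.42 (SE 0.171). Slco1a4 ran from 2.21 in ChGENE 4/5 to 5.08 in ChGENE and from 4.97 to 5.41 in ChHAYW, and without ChGENE 4/5 the difference was −0.55 (limma unadjusted p = 0.00301). Abcb11, the export pump for bile salts, differed by −0.14 (SE 0.548), or by −0.26 without ChGENE 4/5, and Slco1b2 had a difference of 0.41 (SE 0.265).

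The lists of drug-metabolising genes had medians below 0 as well. Among 21 genes of cytochrome P450 families 1 to 3, 0 were higher and 5 lower at the unadjusted level, 17 were below 0, and the median was −0.47. Without ChGENE 4/5 the median was −0.32 and 7 were lower, and over all samples left out in turn the count ran from 4 (without ChHAYW 1 or ChHAYW 6/7) to 9 (without ChHAYW 5). Cyp3a18 had levels of 3.78, 4.43 and 4.94 in ChGENE and 4.45, 5.24 and 6.16 in ChHAYW (lowest, median and highest) and differed by −0.90 (SE 0.242, unadjusted p = 0.00199). Cyp2c22 had −0.99, −0.38 and 0.71 in ChGENE and 0.11, 0.71 and 2.05 in ChHAYW and differed by −1.09 (SE 0.304, unadjusted p = 0.00277). In both, all ChHAYW samples lay above the ChGENE median, and the ranges overlapped. Cyp2c23, which makes epoxides of arachidonate, differed by −0.82 (SE 0.277), Cyp2c13 by −0.54 (SE 0.171) and Cyp2c11, the main male form, by −0.68 (SE 0.281). Cyp2e1, which oxidises ethanol and other small molecules, differed by −0.56 (SE 0.265) and Cyp1a2 by 0.46 (SE 0.323). Cyp2c11 and Cyp2e1 differed by −0.44 and −0.34 without ChGENE 4/5. Genes of these families are close copies of each other, and probes may share their transcripts.

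Of 23 phase II transferases, 0 were higher and 4 lower at the unadjusted level and 19 were below 0. The median was −0.30 with all samples and −0.15 without ChGENE 4/5, where 3 were lower. The count was 2 without ChGENE 3, ChHAYW 1 or ChHAYW 3 and 6 without ChGENE 2. Gstt3, a theta glutathione transferase, had levels of 1.59, 3.18 and 3.55 in ChGENE and 2.89, 3.94 and 4.73 in ChHAYW (lowest, median and highest) and differed by −1.09 (SE 0.378, unadjusted p = 0.0111). Ugt2b35, a glucuronosyltransferase under the name Ugt2b15 on the array, differed by −0.60 (SE 0.191), and Gsta4, which conjugates products of lipid peroxidation, by −0.39 (SE 0.161). Sult2a1, the sulfotransferase of bile acids and steroids, had a difference of 0.67 (SE 0.347).

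Of 22 Nrf2 targets and antioxidant enzymes, 0 were higher and 6 lower, with a median of −0.18. The lower genes were Gclm, Slc7a11, the cystine carrier (−0.87, SE 0.406), Gstm1 (−0.69, SE 0.302), Gsta3 (−0.62, SE 0.253), Txnrd1, the thioredoxin reductase (−0.44, SE 0.18), and Abcc4. Among these, Gclm passed the detection rule through ChHAYW alone, so that its place in the count is a description. Gclc, the catalytic partner of Gclm, had −0.58 (SE 0.273), while Hmox1, heme oxygenase, had 0.34 (SE 0.449). Without ChGENE 4/5, 3 of the genes were lower and the median was −0.13, and 2 were lower without ChGENE 7 or ChHAYW 6/7. With ChGENE 4/5 left out, Gstm1, Gsta3 and Gclc differed by −0.41, −0.40 and −0.34, and Hmox1 by −0.06. ChGENE 4/5 was the lowest of the 14 samples in the mean level of these 3 lists and of the transport list, and at −0.46 it was also the lowest in the hepatocyte markers. The part of these shifts in the differences was not tested beyond the values without that sample.

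The 95% intervals of the lower genes were wide beside their differences. They ran from −1.42 to −0.39 in Cyp3a18, from −1.74 to −0.44 in Cyp2c22 and from −1.90 to −0.29 in Gstt3. In Gclm, which passed the detection rule through ChHAYW alone, the interval of −1.91 to −0.70 is a description.

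Genes that handle nitrogen, sulfur and ascorbate had medians on the same side. Of 25 genes of amino acid and proline catabolism, 21 were below 0 and 4 were lower at the unadjusted level, with a median of −0.14 (−0.07 without ChGENE 4/5). Prodh, proline dehydrogenase, had levels of 1.84, 2.97 and 3.36 in ChGENE and 3.10, 3.66 and 4.63 in ChHAYW (lowest, median and highest) and differed by −0.91 (SE 0.286, unadjusted p = 0.00609). Its Ch mean was 4.33 ± 0.83 (SD). Kmo and Tdo2, which break down tryptophan, differed by −0.51 (SE 0.161) and −0.65 (SE 0.214), and Hibadh, of valine breakdown, by −0.39 (SE 0.126). In the urea cycle, 6 of 8 genes were below 0, the median was −0.30 and Otc, ornithine transcarbamylase, differed by −0.87 (SE 0.233, unadjusted p = 0.00207). The count of lower genes was 1, and 4 without ChHAYW 5. Otc had 1.54, 2.33 and 3.32 in ChGENE and 2.70, 3.26 and 3.80 in ChHAYW, so that the ChGENE median lay below all ChHAYW samples. Cps1, which starts the cycle in mitochondria, and Ass1, which joins citrulline to aspartate, had −0.53 (SE 0.307) and −0.44 (SE 0.218).

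In the methionine cycle and transsulfuration, 0 higher and 3 lower of 14 genes met the unadjusted level. These were Csad, which makes taurine for bile acid conjugation (−0.79, SE 0.269), Cth (−0.59, SE 0.257) and Cbs (−0.38, SE 0.167), which make cysteine. The median of −0.24 became −0.10 without ChGENE 4/5, where 1 was lower and Cbs differed by −0.24. The count was also 1 without ChHAYW 4 or ChHAYW 6/7, and 5 without ChHAYW 5. In the list of vitamin C synthesis and transport, which the rat, unlike humans, runs in its liver, 8 of 10 genes were below 0, with a median of −0.23. Ugp2, which makes UDP-glucose for glycogen and ascorbate, had 4.25, 4.45 and 5.14 in ChGENE and 4.72, 5.42 and 5.84 in ChHAYW (lowest, median and highest) and differed by −0.71 (SE 0.19, unadjusted p = 0.00195). All ChHAYW samples of Ugp2 lay above the ChGENE median, and ChHAYW 5 alone lay within the range of ChGENE.

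Cholesterol synthesis had a median close to that of all genes. Of 20 genes, 2 were higher and 1 lower at the unadjusted level, and the median was −0.04. Sqle, squalene epoxidase, had levels of −2.28, −1.61 and −1.47 in ChGENE and −3.18, −2.66 and −1.89 in ChHAYW (lowest, median and highest) and was higher in ChGENE by 0.81 (SE 0.196, unadjusted p = 0.000919). Mvd, which makes isopentenyl diphosphate, was higher by 0.50 (SE 0.142, unadjusted p = 0.00311), and Fdft1, squalene synthase, had −0.19 (SE 0.0985). In Sqle, ChGENE 1 and ChGENE 7 lay within the range of ChHAYW. The 12 genes of sterol sensing and receptor control and the 11 of sterol efflux and esterification had 0 at the unadjusted level, with medians of 0.0016 and 0.04. Nr1h3, the sterol receptor LXR alpha, differed by 0.27 (SE 0.122), Abcg5, the canalicular sterol exporter, by −0.50 (SE 0.244) (−0.32 without ChGENE 4/5), and Abca1, the exporter to nascent HDL, by −0.24 (SE 0.164). Of 13 apolipoproteins, Apoa4, made on lipid loading, was higher by 0.47 (SE 0.19), and the median was 0.03. Sdc1, a proteoglycan that binds lipoprotein remnants, was higher by 0.49 (SE 0.148).

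In fatty acid synthesis the largest difference was that of Scd (Scd1 on the array), the stearoyl-CoA desaturase. Its levels were −3.28, −2.03 and −0.18 in ChGENE and −1.14, −0.09 and 1.79 in ChHAYW (lowest, median and highest), with a difference of −1.996 (SE 0.487, unadjusted p = 0.00096), and the limma adjusted p was 0.488. ChGENE 1 and ChGENE 6 lay within the range of ChHAYW, and the Ch mean was 1.39 ± 1.34 (SD). The other 14 genes of the list had 0 at that level, Fasn, fatty acid synthase, had −0.27 (SE 0.191), and the list median of −0.14 was −0.003 without ChGENE 4/5. Elovl5, an elongase of polyunsaturated fatty acids, was higher in ChGENE by 0.60 (SE 0.181, unadjusted p = 0.00465), and all 7 genes of that list were above 0. Elovl2, the elongase of longer polyunsaturated chains, had 0.42 (SE 0.208), and Acly, which supplies acetyl-CoA for synthesis, 0.21 (SE 0.147), or 0.32 without ChGENE 4/5. Among genes of fatty acid uptake and activation, 2 higher and 3 lower of 16 met the level, with Fabp2 and Dbi, an acyl-CoA binding protein (0.38, SE 0.147), on the high side and Acsl4 and Acsm3, a medium-chain synthetase (−0.94, SE 0.348), on the low side.

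In mitochondrial beta-oxidation, 2 of 17 genes were higher at the unadjusted level, 0 without ChGENE 7 and 3 without ChGENE 1, ChGENE 4/5 or ChHAYW 1. Acadl, the long-chain dehydrogenase, had levels of 6.27, 6.91 and 7.04 in ChGENE and 6.14, 6.42 and 6.58 in ChHAYW (lowest, median and highest) and a difference of 0.41 (SE 0.143, unadjusted p = 0.0112), and Hadha, of the trifunctional protein, had 0.57 (SE 0.23, unadjusted p = 0.0256). The list median was 0.02. In the list of peroxisomal oxidation and PPARA targets, Cyp4a3, an omega-hydroxylase, differed by −0.48 (SE 0.165) and Fgf21, a hormone of fasting, was higher by 0.77 (SE 0.349), or 0.997 without ChGENE 4/5. Tm6sf2, which loads lipid onto VLDL, and Agpat3, an acyltransferase, were higher by 0.35 (SE 0.146) and 0.43 (SE 0.197). On lipid droplets, Plin3, a coat protein, had 0.34 (SE 0.154), and Plin2, the main coat protein in hepatocytes, 0.34 (SE 0.223), or 0.51 without ChGENE 4/5. Neither met the unadjusted level. Of the 16 genes of lipid droplets and lipolysis, 0 were higher and 1 lower at that level. In this list 9 genes were above 0 and 7 below, with a median of 0.11.

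Of 14 genes of hexose transport and of fructose or galactose breakdown, 3 were higher in ChGENE and 0 lower at the unadjusted level, with a median of −0.0092. Galt, an enzyme of the pathway that turns galactose into UDP-glucose, was higher by 0.64 (SE 0.166, unadjusted p = 0.00164). It had levels of 3.15, 3.58 and 4.05 in ChGENE and 2.48, 2.97 and 3.27 in ChHAYW (lowest, median and highest). ChGENE 1 alone lay within the range of ChHAYW, and the Ch mean was 2.48 ± 0.59 (SD). Slc2a5, the fructose transporter, had −1.47, −0.49 and 0.19 in ChGENE and −3.15, −1.41 and −0.62 in ChHAYW and was higher by 1.04 (SE 0.398, unadjusted p = 0.0199). Gbe1, the glycogen branching enzyme, differed by −0.59 (SE 0.203), while Gys2, liver glycogen synthase, was higher by 0.65 (SE 0.243). In glycolysis, Pfkfb1, which sets the level of an activator of the pathway, differed by −0.61 (SE 0.24), and Ldha, lactate dehydrogenase, had 0.31 (SE 0.124).

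Among the genes of the insulin and growth hormone axis, Igfbp2, a binding protein for insulin-like growth factors, had levels of 2.19, 3.21 and 4.45 in ChGENE and 3.61, 4.69 and 4.88 in ChHAYW (lowest, median and highest). It differed by −1.03 (SE 0.328, unadjusted p = 0.00674), and the Ch mean was 5.16 ± 0.57 (SD). Socs2, a feedback inhibitor of growth hormone, differed by −0.78 (SE 0.338), and Ghr, the receptor, was higher by 0.51 (SE 0.207). In the circadian clock list, Cry1, a repressor of the clock, differed by −0.91 (SE 0.371) and Dbp, an output factor, by 0.74 (SE 0.324), and without ChGENE 4/5 their unadjusted limma p was 0.0579 and 0.0859. Hamp, the iron hormone hepcidin, had 1.94, 4.08 and 7.19 in ChGENE and 5.55, 5.97 and 6.48 in ChHAYW and a difference of −1.496 (SE 0.574, unadjusted p = 0.0199), and without ChGENE 4/5, its highest sample, the difference was −1.94 with an unadjusted limma p of 0.000676. Zfp354a, a zinc finger repressor, had −2.86, −2.32 and −0.96 in ChGENE and −2.30, −1.09 and 0.93 in ChHAYW and differed by −1.48 (SE 0.513, unadjusted p = 0.0115), with 3 ChGENE samples within the range of ChHAYW. Naprt, of NAD synthesis, was higher by 0.42 (SE 0.13), and Nampt, of the salvage route to NAD, had −0.39 (SE 0.229).

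Genes of matrix, TGF-beta signalling and stellate cells had medians above 0, on the side of ChGENE. Of 32 genes of matrix and crosslinkers, 4 were higher and 0 lower at the unadjusted level and 25 were above 0, with a median of 0.19. Without ChGENE 4/5 the median was 0.09 and 1 was higher, as without ChGENE 1, ChHAYW 1, ChHAYW 4 or ChHAYW 6/7. Col4a1, a basement membrane collagen, had 0.41 (SE 0.175) and Bgn, biglycan, 0.30 (SE 0.128). Of 22 genes of TGF-beta signalling 4 were higher, 3 without ChGENE 4/5, and the median of 0.11 was 0.02 without it. Ltbp4, which stores latent TGF-beta in the matrix, had levels of −1.42, −0.93 and −0.67 in ChGENE and −1.99, −1.52 and −0.94 in ChHAYW (lowest, median and highest) and a difference of 0.60 (SE 0.171, unadjusted p = 0.00316). Inhbe, the activin E chain made by liver, had 1.46, 2.12 and 2.51 in ChGENE and 0.35, 1.22 and 1.998 in ChHAYW and 0.86 (SE 0.263, unadjusted p = 0.00514). In each gene 3 ChGENE samples, ChGENE 4/5 among them, lay within the range of ChHAYW.

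Among 14 markers of stellate cells and myofibroblasts, Pdgfrb and Pdgfra (0.43, SE 0.18, or 0.28 without ChGENE 4/5) were on the high side, while Lrat, which stores retinol as esters in these cells, differed by −0.51 (SE 0.149, unadjusted p = 0.00398). Lrat had −0.07, 0.30 and 0.99 in ChGENE and 0.71, 0.86 and 1.18 in ChHAYW (lowest, median and highest), and all of ChHAYW lay above the ChGENE median. The list's median was 0.09, and its mean level ran from −0.21 to 0.49 in ChGENE and from −0.23 to 0.07 in ChHAYW. ChGENE 4/5 was the highest sample in the mean levels of this list and of the matrix list.

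In the endoplasmic reticulum stress list, 3 higher and 1 lower of 24 genes met the unadjusted level. Pdia4, an oxidoreductase of protein folding, and Atf6, a sensor of unfolded protein, were higher by 0.65 (SE 0.225) and 0.63 (SE 0.238), as was Hspa5, the chaperone BiP (0.39, SE 0.147). Xbp1, a transcription factor of the same response, differed by −0.50 (SE 0.186). Among 19 heat shock chaperones, Hsp90aa1, an inducible chaperone, and Bag3, a co-chaperone, were higher by 0.59 (SE 0.221) and 0.46 (SE 0.17), and 5 were higher without ChGENE 4/5. The median of that list was 0.12, and 15 of its genes were above 0. Of 49 cytosolic ribosomal proteins, 47 were below 0, though 0 met the unadjusted level. Their median was −0.12, or −0.05 under the scaling that moved it most toward 0, and Rps18, Rps25 and Rps7 had −0.33 (SE 0.141), −0.25 (SE 0.112) and −0.27 (SE 0.122). Of 47 subunits of oxidative phosphorylation, 24 were above 0, and Ndufs7 and Ndufa5, subunits of complex I, had 0.47 (SE 0.17) and 0.31 (SE 0.17).

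The lists of immune genes spread widely among the samples of each diet. The mean level of the interferon response list ran from −1.25 to 1.94 in ChGENE and from −0.92 to 1.55 in ChHAYW, with ChGENE 8, ChHAYW 3 and ChHAYW 5 as the highest samples. In the list of major histocompatibility complex genes and antigen processing the ranges were −0.81 to 0.85 and −0.72 to 0.74, and in chemokines and interleukins −0.95 to 1.18 and −0.71 to 0.99. The 15 markers of Kupffer cells and macrophages, 14 of them detected, ran from −1.38 to 1.70 and from −0.97 to 0.83. Without ChGENE 4/5 the median of the histocompatibility list went from 0.22 to 0.04, that of chemokines and interleukins from 0.14 to 0.03 and that of the Kupffer cell markers from 0.09 to −0.09. These 4 lists had 1 gene at the unadjusted level, Cxcl12, a chemokine of stromal and endothelial cells, with levels of 3.98, 4.73 and 5.53 in ChGENE and 3.74, 4.08 and 4.49 in ChHAYW (lowest, median and highest). It was higher in ChGENE by 0.64 (SE 0.201, unadjusted p = 0.00636), and by 0.76 without ChGENE 4/5. Ccl4, a chemokine of activated leukocytes, and Tnf had 0.91 (SE 0.56) and 0.92 (SE 0.82), which did not meet the level, and Tnf had 0.35 without ChGENE 4/5.

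The acute phase proteins had a median of 0.04 over 25 genes, with 0 higher and 1 lower, Apcs, a pentraxin (−0.39, SE 0.174). The median was −0.03 and 2 were lower without ChGENE 4/5. ChGENE 4/5 was their highest sample at 0.89, and the other ChGENE samples lay between −0.33 and 0.19. Orm1, an acid glycoprotein of the acute phase, had 1.19 (SE 0.744), and Ahsg, fetuin, −0.29 (SE 0.177), which became 0.56 and −0.15 without ChGENE 4/5. In complement and coagulation, 1 higher and 2 lower of 32 genes met the level, among them Serpind1, heparin cofactor II (−0.66, SE 0.226), Pros1, protein S (−0.44, SE 0.188), and F7, factor VII (0.44, SE 0.191), and without ChGENE 4/5 there were 0 higher and 5 lower. The neutrophil genes S100a8 and S100a9 had highest ChGENE levels of 3.98 and 4.11, both in ChGENE 4/5, against medians of −3.01 and −2.35. Their differences of 0.85 and 0.82 became −0.18 and −0.14 without that sample. Camp, the third detected neutrophil marker, had its lowest ChGENE level, −1.74, in ChGENE 4/5.

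Across the lists, ChGENE 4/5 was the highest of the 14 samples in the matrix, TGF-beta, complement and coagulation, and sinusoidal endothelium lists, at 0.69, 0.48, 0.60 and 0.83 from their mean. It was the lowest in the lists of ketogenesis, of phospholipid synthesis and of pericentral genes, at −0.39, −0.34 and −0.25.

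Of the other lists of pathways and cell types, those of sinusoidal endothelium, cholangiocytes, erythroid cells, B and plasma cells, adipocytes and pancreas had 0 genes at the unadjusted level, as had phospholipid synthesis, ketogenesis, nuclear receptors, hepatocyte transcription factors, periportal genes, cadherins and protocadherins, the proteasome, and mitosis and DNA replication. Their medians lay between −0.14 and 0.20. The pericentral genes had Cyp27a1 alone on the low side, the immediate early genes had Myc (−0.63, SE 0.289), and the markers of T and natural killer cells and of skeletal muscle had 1 gene each on the high side, Zap70 (0.57, SE 0.236) and Tnnc2 (1.04, SE 0.36). The hepatocyte markers had 1, Cyp2c11 (3 without ChGENE 6 or ChHAYW 5), and a median of −0.03.

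Over the pathway lists of 5 or more genes, the medians ran from −0.47 in the list of cytochrome P450 families 1 to 3 to 0.22 in that of MHC and antigen processing, which was 0.04 without ChGENE 4/5. When each sample was left out in turn, the median of the P450 list lay between −0.58 and −0.32, that of bile acid synthesis between −0.33 and −0.25, and that of the matrix list between 0.09 and 0.24.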

How the data were processed

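Liver RNA was measured on 1-colour (Cy3) Agilent rat arrays. The authors deposited scanner output of Agilent's Feature Extraction software per array, and the deposited intensity values used here are background-subtracted, spatially detrended spot signals that were not normalised between arrays, per the file headers. The array design refers to genome build rn4, and no coordinates were used. The deposited value table equals these signals.

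Spots of 1 probe were averaged without control spots and spots marked as outliers. The intensity of each probe was scaled to the 75th percentile of its array and taken to log2. Of the probes, 24272 carried a gene symbol, and 18635 were matched by accession to RefSeq (GRCr8) for the current symbol. Detection used the software's call of a signal well above background.

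Arrays of 1 group whose differences were close to the software's spot error (at least 90% of spots within 1.96 times the error) were averaged. This left 7 samples per group, a change from the planned 8 against 8, which is given as an alternative chosen after seeing the data. The test was limma (3.58.1, in R 4.3.3, lmFit and eBayes) on ChGENE and ChHAYW over all 30367 probes, with Benjamini-Hochberg adjustment and a fold change of at least 1.3. Intervals are at 95%, and the number of arrays limits their precision. The code was tested on simulated data, and tables were joined in Python 3.11.15.

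The text names, per direction, the 12 detected genes with the smallest p, and up to 3 genes with the smallest p of each list described, at its brightest probe. Other list genes (Abcb11, Cyp1a2, Cyp2c23, Dbi, Fdft1, Gclc, Gstm1, Hmox1, Hspa5, Myc, Slc10a1, Slc7a11, Slco1a1, Slco1b2, Sult2a1, Tnnc2, Txnrd1 and Zap70) were chosen after their values were seen. Some genes that the rule names are not reported here. The comparison and its 62 lists (50 of pathways and 12 of cell type markers) were chosen with earlier results of these data known. The labels number the arrays as separate biological replicates. As pairs of arrays were averaged here, p-values of the main fit measure the spread between the 7 samples per group. The level of a list is the mean of its detected genes.

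Alternatives changed the background correction, the scaling, the probes and arrays in the fit, the weights and the test, with the methods' t-test among them, and left out each sample in turn. Columns of the authors' own comparisons were not used, and 0 columns of other samples were left out.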

Additional observations from a re-analysis of the deposited data

Results flagged for a closer look

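In both groups of 7 samples, the 23 genes nearest to the threshold and the mean levels of the 62 lists were searched for a sample far from the other 6 by Dixon's test, which finds 1 in about 20 groups by chance, and 9 were found in 170. ChGENE 4/5 accounted for 6 of them. Relative to the mean of the 14 samples, its level was 4.01 in the neutrophil markers (the other ChGENE samples −0.82 to −0.0022), 0.891 in the acute phase proteins (−0.326 to 0.191) and 0.451 in endoplasmic reticulum stress (−0.179 to 0.0724). It was −0.775 in the methionine cycle and transsulfuration (the others −0.146 to 0.094), −0.769 in the phase II transferases (−0.154 to 0.194) and −0.371 in bile acid and anion transport (−0.153 to −0.0078). ChHAYW 5 stood at −0.174 in cholesterol synthesis, with the other ChHAYW samples between −0.0378 and 0.0627. ChHAYW 3 stood at 0.394 in the acute phase proteins, with the others between −0.222 and 0.0088. ChGENE 2 stood at 0.623 in the skeletal muscle markers, with the others between −0.132 and 0.156. What set these samples apart was not tested.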

How the results depend on the processing

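No detected probe was called with all samples, and the count of calls was 2 in the fit over probes detected on all 16 arrays, 2 with limma's trend and robust settings, 4 with array weights, 2 with each array as 1 sample, 2 with each pair as a random block and 0 to 2 when each sample was left out. Cgref1 was among the calls in each of these fits apart from most of those that left out a sample. By the unadjusted p of 0.05 with a fold change of 1.3, the number of detected probes higher in ChGENE was 411, and became 263 after normexp background correction, 677 with array weights, 630 with each array as 1 sample and 268 to 568 when each sample was left out. The number lower was 447, and became 290 after normexp, 770 with array weights, 684 with each array as 1 sample and 329 to 884 when each sample was left out, with the most without ChHAYW 5. The replicate block gave 0 calls (lowest limma adjusted p = 0.228) and 672 lower probes. Samples of the same number did not deviate together (r from −0.379 to 0.227), so the number is not read as a pairing. The methods' t-test gave 0 calls after Benjamini-Hochberg adjustment. The median of bile acid and anion transport, −0.20 with all samples, lay between −0.27 (without ChHAYW 3) and −0.068 (without ChHAYW 5), and no median of the other 61 lists moved by more than the spread between samples. S100a9 and S100a8 changed sign without ChGENE 4/5, to −0.14 and −0.18. Other scalings moved the median of all probes by at most 0.0489. The cause was not tested for any of these. Limits are the 7 samples per group, 1 slide per diet, which cannot be told apart from it, and signals near background, where log2 differences are noisy.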

Other observations

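Some probes that fell short of the detection rule, and so were outside the comparison, were called under an alternative, and they are given here after their values were seen. Abhd3, a phospholipase of the same hydrolase family as Abhd2, was above background in 6 of 7 ChGENE samples, at levels from −2.80 to −1.33, and in none of ChHAYW or Ch. It was at −6.47 in ChGENE 4/5. It differed by 4.12 on the log2 scale (limma adjusted p = 0.110). As no ChHAYW signal was above background, the size of this difference is uncertain. Without ChGENE 4/5 the limma adjusted p was 2.59e-06, and it ran from 2.59e-06 to 0.4 over 29 alternatives, of which 5 called it. Mmp27, a matrix metalloproteinase, was above background in 6 ChGENE samples and in 0 of ChHAYW, and differed by 2.99 (limma adjusted p = 0.149), with the same limit. Ackr2, a scavenging chemokine receptor, was above background in 6 samples of ChGENE and 1 of ChHAYW and differed by 1.45 (limma adjusted p = 0.175). Bmp10, a ligand of the TGF-beta family, was above background in 3 ChGENE samples and 0 of ChHAYW and differed by 1.19 (limma adjusted p = 0.175). It was above background in ChGENE 1 at −5.15 but not in ChGENE 6 at −5.03, so this difference is uncertain too.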
